A study of Mus musculus with 4 samples.

Results

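The Hox genes encode homeodomain transcription factors and lie in 4 clusters of the mouse genome, HoxA, HoxB, HoxC and HoxD. The accessibility of their loci was examined by ATAC-seq at 2 time points of cardiogenic mesoderm differentiation. Within each cluster the genes are numbered from the 3′ end toward the 5′ end, by paralogue groups 1 to 13. Not every group is listed in each cluster, and the HoxC genes begin with group 4, at Hoxc4. Overlapping peaks of the 4 libraries (1 bp or more in common) formed 40910 union regions, each given to the gene whose protein-coding transcript started nearest, within 100 kb. This placed 44 regions at 22 of 38 listed Hox genes. Assignment to the nearest start does not show that a region regulates the gene.

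The wild-type mouse embryonic stem cell line ES-E14TG2a was differentiated through cardiogenic mesoderm toward endothelium. The d2 libraries were made before Activin A, BMP4 and VEGF were added, and the d4 libraries after exposure to these factors. By flow cytometry, the study detected no cells with the endothelial marker VE-Cadherin at d2 and only a minority at d4. Each time point had 2 libraries from independent differentiation experiments of the same parental line, so the p-values below carry the spread between experiments and not between lines. Each library was made from a bulk culture, so fewer cells with an open region and less accessibility per cell cannot be told apart.

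Hox proteins set the identity of body segments along the head-to-tail axis, usually with cofactors of the TALE class such as Pbx and Meis. The genes are activated in order of position, those at the 3′ end first and in more anterior tissue, and those at the 5′ end later and more posteriorly. In pluripotent cells their CpG-rich promoters typically carry Polycomb marks together with trithorax-type marks, a state in which transcription is held low.

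Sequences at the summits of 5 Hox regions are shown as examples of the letters under the calls. Each is the plus strand of GRCm38 (mm10, RefSeq assembly), and capitals mark CG dinucleotides. The first had peaks at d4 only, the next 3 at d2 only, in both replicates each time, and the last had a peak in all 4 libraries.
Hoxd1 d4 (chr2:74760132-74760332): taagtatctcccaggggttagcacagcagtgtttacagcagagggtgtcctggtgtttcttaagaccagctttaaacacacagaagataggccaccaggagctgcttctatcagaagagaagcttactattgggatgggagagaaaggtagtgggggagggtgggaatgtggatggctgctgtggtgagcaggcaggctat
Hoxa4 d2 (chr6:52191928-52192128): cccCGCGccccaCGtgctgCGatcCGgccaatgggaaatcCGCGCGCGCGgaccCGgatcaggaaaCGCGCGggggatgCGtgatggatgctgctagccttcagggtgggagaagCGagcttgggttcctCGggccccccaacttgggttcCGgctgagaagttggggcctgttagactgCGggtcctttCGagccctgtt
Hoxd11 d2 (chr2:74681673-74681873): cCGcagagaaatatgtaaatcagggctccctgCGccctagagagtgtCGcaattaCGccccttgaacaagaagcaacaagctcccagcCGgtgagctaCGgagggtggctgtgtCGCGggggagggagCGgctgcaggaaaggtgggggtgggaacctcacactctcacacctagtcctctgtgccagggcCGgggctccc
Hoxd13 d2 (chr2:74667909-74668109): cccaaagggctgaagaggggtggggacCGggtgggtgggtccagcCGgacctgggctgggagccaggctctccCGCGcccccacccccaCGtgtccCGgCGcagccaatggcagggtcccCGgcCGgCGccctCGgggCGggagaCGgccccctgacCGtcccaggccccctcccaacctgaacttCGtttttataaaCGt
Hoxc13 all (chr15:102920670-102920870): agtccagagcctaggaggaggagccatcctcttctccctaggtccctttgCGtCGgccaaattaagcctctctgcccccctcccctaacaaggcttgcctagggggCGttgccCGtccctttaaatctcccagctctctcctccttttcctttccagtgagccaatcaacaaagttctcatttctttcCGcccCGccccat
The stretches are single examples, and the Hoxd1 one is 1 of 2 gained regions, so no difference between classes is read from them.

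Most Hox regions were called in 1 library only. A peak was found in a single library at 28 of 44 Hox regions (63.6%), against 37% of all regions. Of these, 22 were called in a single d2 library (50.0%, against 22.3% of all regions) and 6 in a single d4 library (13.6%, against 14.6%). Only 1 Hox region was shared by all 4 libraries (2.27%), whereas 28.1% of all regions were. A gained region, called in each d4 replicate but not at d2, was found in 2 cases (4.55%, against 9.93% of all regions). Without d4 replicate 1 this count was 6 of 42 Hox regions, against 17.8% of all regions. Without d4 replicate 2 it was 4 of 40, against 19.6%. The reverse pattern, here called lost, was found at 7 Hox regions (15.9%, against 13.8%), a share near the background. No test between d2 and d4 was run on these classes, since with 2 libraries against 2 the smallest two-sided exact permutation p is 0.333.

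**Figure D1:**
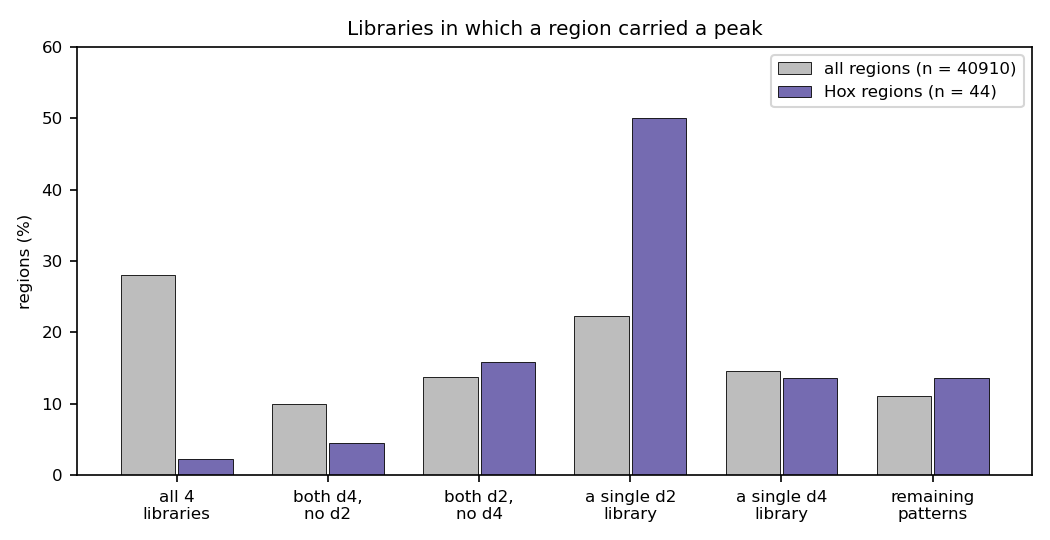
Bars give the percent of regions (y axis) with each pattern of peak calls (x axis), for all 40910 regions in grey and the 44 Hox regions in purple. The Hox regions were found in a single d2 library in 50.0% of cases and in all 4 libraries in 2.27%, against 22.3% and 28.1% of all regions.

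The number of Hox regions with a peak was alike within a time point and differed between time points. A peak was called at 23 Hox regions in each d2 library, at 10 in d4 replicate 1 and at 9 in d4 replicate 2. All libraries together had 26865, 24544, 22511 and 21299 peaks in the same order, a smaller fall. The replicates shared few of the Hox calls. Of the 36 Hox regions with a peak in either d2 library, 10 had one in both (27.8%), against 62.4% of all regions. Of the 15 with a peak in either d4 library, 4 had one in both (26.7%), against 63.5%.

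Hox peaks were low. The median pileup, which is the number of reads or fragments over the summit as solved from the deposited values, at Hox peaks was 12 and 11 in the d2 replicates, then 13 and 16 at d4. Over all peaks it was 16, 18, 18 and 18, and no peak was called under a pileup of 6 at d2 or 7 at d4. Peaks in a single library ranged from 8 to 20 at the Hox regions, and 15 of the 28 had a −log10 q below 5. The genome-wide background coverage was 0.568 and 0.483 in d2 and 0.755 and 0.744 in d4, so fewer Hox peaks were called in the libraries of higher background coverage. Its part in the result was not tested. With a −log10 q of at least 10, 11 Hox regions were left. Of these, 8 were in a single library (against 32.6% of all regions) and 1 was gained (against 8.59%). Lost regions numbered 0 (against 12.5%) and 1 was shared (against 32.5%).

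The clusters differed in how many regions were assigned to their genes, and some regions of Hoxb1 and Hoxc4 lay beyond the 3′ end of the cluster. HoxC had 18 regions at 7 of 9 genes, HoxB 13 at 6 of 10, HoxD 10 at 6 of 9, and HoxA 3 at 3 of 10. Both gained regions were assigned to the most 3′ listed gene of a cluster, Hoxb1 or Hoxd1. The Hoxd1 region lay inside HoxD. The Hoxb1 region lay outside HoxB, farther past its 3′ end than the 5 kb added to the spans below. The lost regions were 3 in HoxD, 2 in HoxC, 1 in HoxB and 1 in HoxA. The shared region lay at the 5′ end of HoxC. By paralogue group, the 7 listed genes of groups 1 to 3 held 15 regions, with 2 gained and 2 lost. The 15 listed genes of groups 4 to 8 held 14, with 0 gained and 2 lost. The 16 listed genes of groups 9 to 13 held 15, with 0 gained and 3 lost. Regions per listed gene were thus highest in groups 1 to 3. The groups follow gene names and not the place of each region. The lost Hoxd3 region had its d2 summits 52.99 and 52.9 kb from the 3′ end of Hoxd1, at a far 5′ start of Hoxd3. It and a Hoxd3 region at 49.16 kb lay 5′ of the Hoxd4 starts (38.07 and 43.16 kb). Among all regions 9.93% were gained and 13.8% lost, and these small counts were not tested. No region was assigned to Hoxa2, Hoxa3, Hoxa6, Hoxa9, Hoxa10, Hoxa11, Hoxa13, Hoxb4, Hoxb6, Hoxb8, Hoxb13, Hoxc5, Hoxc10, Hoxd4, Hoxd8 or Hoxd12.

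**Figure D2:**
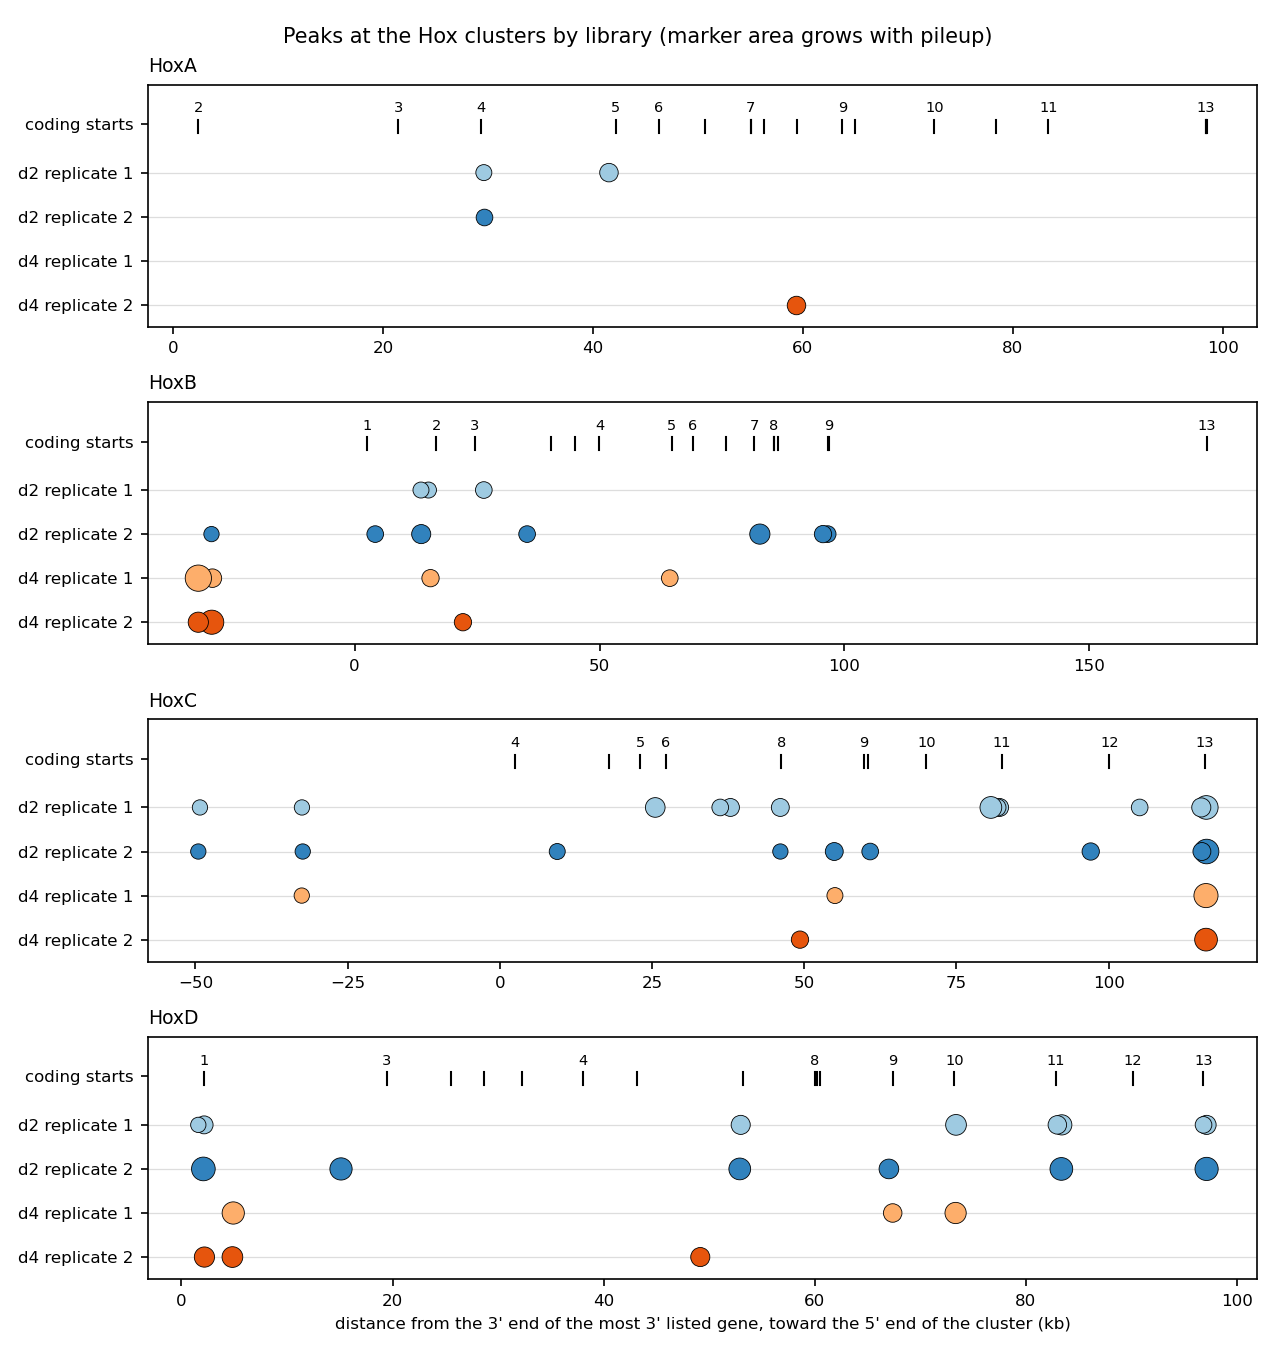
Each panel is 1 cluster, with the distance in kb from the 3′ end of its most 3′ listed gene toward the 5′ end on the x axis. Ticks are starts of coding transcripts, with the paralogue number at each gene's most 3′ start, and circles are peaks by library, larger for a higher pileup. HoxA is nearly empty, and the 4 circles aligned at the 5′ end of HoxC are the Hoxc13 region found in every library.

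The gained regions lay away from coding starts. The Hoxb1 region (chr11:96400035-96400292) was intergenic, 34.3 kb downstream of the start of Hoxb1, a gene of hindbrain segment identity. Its pileup was 29 in d4 replicate 1 and 16 in d4 replicate 2, with no peak in either d2 library. A neighbouring intergenic region (chr11:96396944-96397558), 31.2 kb downstream of Hoxb1, had a pileup of 13 and 24 in d4 replicates 1 and 2, of 8 in d2 replicate 2, and no peak in d2 replicate 1. Both d4 values at this neighbour were above the d2 value.

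The other gained region (chr2:74760160-74760416) lay 2.56 kb upstream of the start of Hoxd1, in an intron of Haglr, a noncoding RNA gene of the HoxD cluster. Its pileup was 20 and 17 in d4 replicates 1 and 2, with no peak in d2. With a −log10 q of at least 10 in each library this Hoxd1 region was still gained, while the Hoxb1 region was left in d4 replicate 1 only. The start of Hoxd1 itself (chr2:74762732-74763287) had pileups of 12 and 23 in d2 and of 16 in d4 replicate 2, with no peak in d4 replicate 1, so calls there did not follow the time point.

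Of the 7 lost regions, 6 lay within 1000 bp of a coding start (85.7%, against 23.6% of all lost regions). In HoxD they were at Hoxd3, Hoxd11 and Hoxd13. Hoxd13 is needed for digits and Hoxd11 for the forearm, and both lie toward the 5′ end. The Hoxd13 region (chr2:74667876-74668372) spanned the gene's start and had pileups of 14 and 22 in d2 replicates 1 and 2. The Hoxd11 region (chr2:74681585-74682207), 116 bp upstream of the start and in an intron of a longer transcript, had 16 and 21. The Hoxd3 region (chr2:74711985-74712534), in a UTR and over the start of the antisense gene Hoxd3os1, had 14 and 19. In all 3 the second d2 library was the higher, and neither d4 library had a peak.

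In the other clusters the lost regions had pileups of 8 to 14. The Hoxa4 region (chr6:52191912-52192134), 159 bp upstream of the start and in an intron of Hoxa3, had pileups of 9 and 10 in d2 replicates 1 and 2. The Hoxb2 region (chr11:96354594-96354894), 2.96 kb downstream of the start of this hindbrain gene and over a start of the antisense gene Hoxb3os, had 9 and 14. The Hoxc8 region (chr15:102990657-102990878), 50 bp inside the start of a gene that patterns the thorax, had 12 and 8. The lost Hoxc13 region (chr15:102921455-102921673), in the coding exon 352 bp downstream of the start, had 14 and 12. Several of these values sit just above the smallest pileup called. The count of lost Hox regions was 4 of 29 with a −log10 q of at least 5, against 14.1% of all regions. With 1 d2 library dropped, 17 were lost (replicate 1 dropped) or 21 (replicate 2 dropped).

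The Hoxc13 start was the exception in being called everywhere. This region (chr15:102920686-102920965), 138 bp upstream of the start of a gene known for its role in hair and nails, had pileups of 23 and 25 in d2 and 24 and 21 in d4. The groups overlapped. Among the 11494 regions shared by all libraries, limma on log2 pileup, centred on each library's median, called 6.14% higher and 2.78% lower at d4. For Hoxc13 the log2 difference, d4 minus d2, was −0.10 with a standard error of 0.27 (n = 2 and 2, limma, Benjamini-Hochberg adjusted p = 0.875 over all shared regions). No change was detected, and the standard error leaves room for a moderate one. With the deposited fold enrichment in place of pileup the sign was the opposite, at 0.21.

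**Figure D3:**
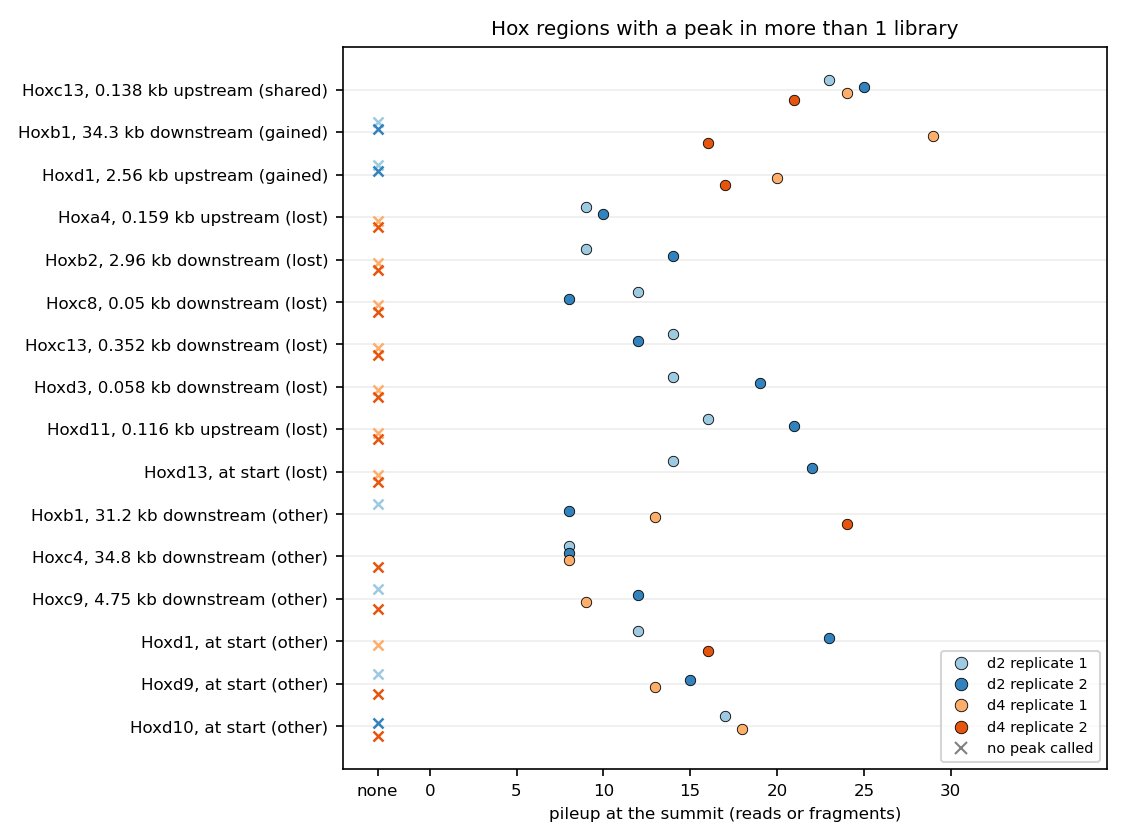
The x axis is the pileup at the summit and each row is 1 of the Hox regions with a peak in more than 1 library, named by gene, distance from the nearest coding start and class, where other marks a remaining pattern. Circles are libraries by colour and crosses mark libraries with no peak called. The shared Hoxc13 region sits between 21 and 25 in every library, and the lost regions run from 8 to 22 in d2.

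The remaining 6 regions were split across time points. Hoxd10 at its start had pileups of 17 in d2 replicate 1 and 18 in d4 replicate 1, and no peak in either replicate 2. Hoxd9 at its start had 15 in d2 replicate 2 and 13 in d4 replicate 1. A Hoxc9 region in a coding exon, 4.75 kb downstream of a start, had 12 in d2 replicate 2 and 9 in d4 replicate 1. A region 34.8 kb downstream of Hoxc4 had 8 in both d2 libraries and 8 in d4 replicate 1. None of these separated d2 from d4. The other two, at the start of Hoxd1 and downstream of Hoxb1, are described above.

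Few Hox starts carried a peak. Within 1000 bp of a coding start, a peak was found at 10 of 38 Hox genes in each d2 library, at 4 in d4 replicate 1 and at 3 in d4 replicate 2. Both d2 libraries had one at 7 genes (18.4%, against 54.9% of all coding genes), which were Hoxa4, Hoxc8, Hoxc13, Hoxd1, Hoxd3, Hoxd11 and Hoxd13. Both d4 libraries had one at Hoxc13 alone (2.63%, against 48.1%). A single d4 library had one at 3 genes without replicate 1 (against 51.3%) and at 4 without replicate 2 (against 51.5%). No library had one at 23 Hox genes (60.5%, against 37.6%).

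The low share held among genes with a CpG-rich start, defined as an observed over expected CpG ratio of at least 0.6 and a GC content of at least 50% within 250 bp. Of the 26 Hox genes with such a start, 12 had no peak in any library (46.2%), whereas 765 of 11973 coding genes with such a start had none (6.39%). Both d2 libraries had a peak at 26.9% of these Hox genes against 85.9%, and both d4 libraries at 3.85% against 76.7%. By cluster, both d2 libraries had a start peak at 4 of 9 HoxD genes, 2 of 9 HoxC genes, 1 of 10 HoxA genes and 0 of 10 HoxB genes.

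**Figure D4:**
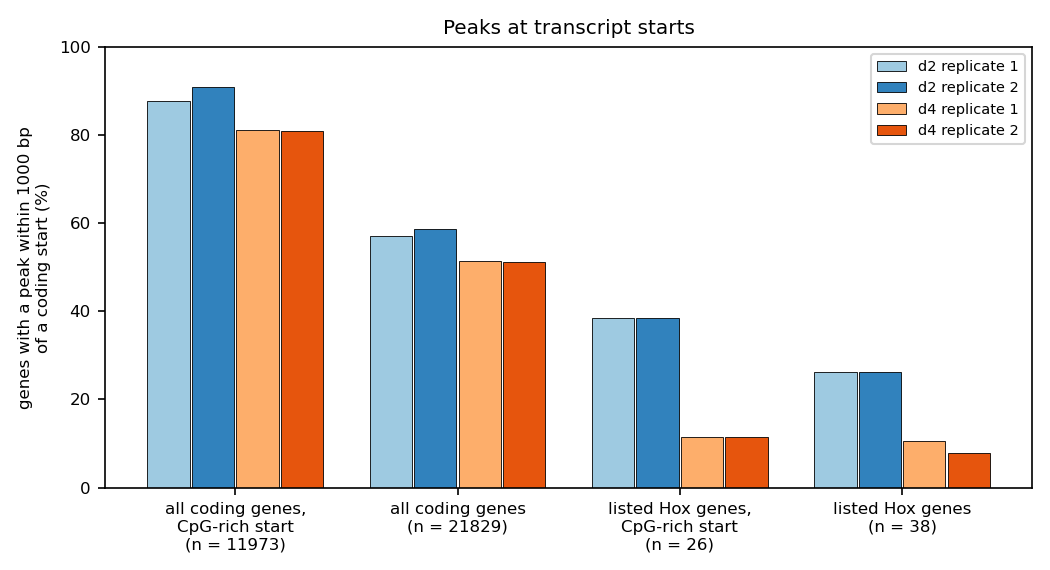
Bars give the percent of genes with a peak within 1000 bp of a coding start (y axis) in each library (colours), for all coding genes and the listed Hox genes, each also limited to CpG-rich starts. Among all coding genes the 4 libraries lie between 51.3% and 58.8%, and among Hox genes between 7.89% and 26.3%.

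Although few starts were called, peaks at d2 covered more of the clusters than of the genome. Over the 4 spans of listed genes with 5 kb at each end, 525 kb in all, peaks covered 1.05% and 1.10% of bases in the d2 replicates and 0.409% and 0.410% in the d4 replicates. The genome-wide shares were 0.316%, 0.334%, 0.277% and 0.271%. Spans with a like density of coding starts were not compared, so the excess is over the whole genome only. HoxD was the most covered, at 1.99% and 2.53% in d2 and 0.747% and 0.655% in d4. HoxC had 1.53% and 1.08% in d2 and 0.342% and 0.323% in d4. HoxB had 0.359% and 0.460% in d2 and 0.180% and 0.0696% in d4, so that both d4 values were below those of the genome. Without the 5 kb ends the mean over the 4 clusters was 0.949% at d2 and 0.278% at d4, and with a −log10 q of at least 10 it was 0.298% and 0.18%, against genome means of 0.241% and 0.201%. The excess over the genome at d2 was thus much smaller with the stricter threshold, at 0.298% against 0.241%. At d4 the excess depended on these settings. In HoxB, HoxC and HoxD both d4 libraries lay below both d2 libraries.

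HoxA had 0.745% and 0.809% in d2 and 0.542% and 0.846% in d4, and here the time points overlapped. Its 5 kb ends take in a region assigned to a gene outside the list. Without those ends HoxA had 0.363% and 0.388% in d2 and 0.142% and 0.269% in d4. The shorter span still holds a region of another gene outside the list, called in d2 replicate 2 and d4 replicate 1, which makes up all of the HoxA value in d4 replicate 1.

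**Figure D5:**
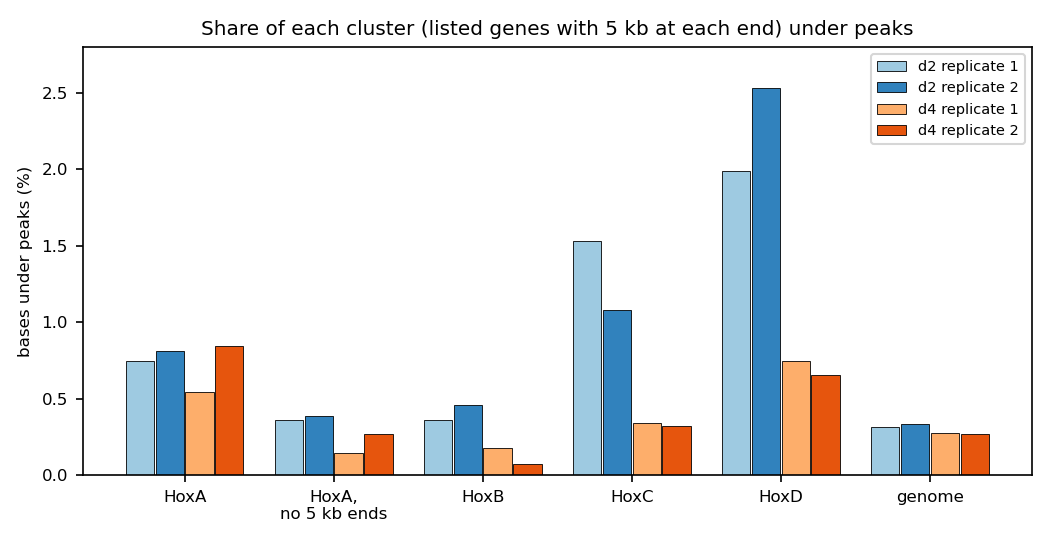
Bars give the percent of bases under peaks (y axis) in each library (colours) for each cluster and for the genome, with HoxA also drawn without the 5 kb ends. In HoxD the d2 libraries reach 1.99% and 2.53% and the d4 libraries 0.747% and 0.655%, while the genome stays between 0.271% and 0.334%.

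The Hox regions were rich in CpG, narrow and not confined to starts. The median observed over expected CpG ratio within 100 bp of the summit was 0.69 at Hox regions and 0.37 over all regions. The median GC content was 64.7% against 56.7%. Within 1000 bp of a coding start the median CpG ratio was the same, 0.78 for Hox regions and 0.78 for all regions. Hox regions lay within 1000 bp of a coding start in 18 of 44 cases (40.9%, against 38.2% of all regions). They were narrower, with a median width of 200 bp against 273 bp, and of 222 bp against 508 bp near starts. The 28 Hox regions found in a single library also had a high CpG ratio, with a median of 0.68 against 0.24 for all such regions. The 7 lost Hox regions had a median of 0.71 against 0.28 for all lost regions. By annotation, 14 Hox regions overlapped a coding exon, 10 an intron, 6 a noncoding exon and 4 a UTR, and 10 were intergenic.

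Binding motifs were sought on both strands within 100 bp of the summits. GATAA, the core read by GATA factors, occurred at 4 of 44 Hox regions (9.09%, against 19.8% of all regions). Within 250 bp these shares were 22.7% and 39.1%. TGATNNAT, a site of Hox and Pbx dimers, occurred at 1 Hox region (2.27%, against 3.59%), the lost Hoxa4 region, as TGATGGAT from position 82 of its printed stretch, counted from 1 at the 5′ end. The E-box CANNTG occurred at 23 (52.3%, against 60.9%) and the OTX site TAATCC at 1 (2.27%, against 5.6%). The POU octamer ATTTGCAT, the CDX site TTTATNG, the CTCF motif and the retinoic acid response element of the DR5 type occurred at 0 Hox regions, against 1.9%, 3.61%, 3.59% and 0.0513% of all regions. Within 250 bp the CDX site occurred at 6 Hox regions (13.6%, against 12.5%). A match is a description of the letters and not of binding.

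Genes that act with Hox genes are given by their counts, to be read against the 9.93% gained, 13.8% lost and 28.1% shared among all regions. The TALE list of 11 cofactor genes had 64 regions, with 11 gained (17.2%), 12 lost (18.8%) and 14 shared (21.9%). Several gained or lost regions each were found at Meis2 (3 gained), Pknox2 (4 gained and 2 lost) and Tgif1 (1 gained and 7 lost). The Cdx genes, which act upstream of Hox genes in the posterior embryo, had 7 regions with 1 gained, 2 lost and 1 shared. The Evx genes, which neighbour HoxA and HoxD, had 6 with 1 gained, 0 lost and 0 shared. The 18 Polycomb genes had 59 regions with 5 gained (8.47%), 7 lost (11.9%) and 17 shared (28.8%), among them 2 gained and 2 lost at Phc1. The 9 trithorax genes had 15 regions, of which 12 were shared.

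Marker genes of the stages were counted in the same way. The 8 genes of the pluripotent cell and epiblast had 33 regions with 1 gained (3.03%) and 7 lost (21.2%), of which 2 lost were at Otx2. The 8 mesoderm genes had 32 with 5 gained (15.6%) and 1 lost (3.12%), of which 2 gained and the 1 lost were at Eomes. The 8 endothelial genes had 32 with 2 gained (6.25%) and 1 lost (3.12%), so their gained share was below that of all regions. Named after their values were seen, Kdr, Etv2 and Tal1 had a start peak in all 4 libraries, Flt1 in both d2 libraries and d4 replicate 1, Cdh5 and Pecam1 in d4 replicate 1 only, Tek in d4 replicate 2 only, and Tie1 had no region.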

How the data were processed

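ATAC-seq libraries from d2 and d4, 2 each, were grouped by their labels. According to the study's methods, the authors used cutadapt for trimming, Bowtie2 for alignment to mm10 and MACS2 to call peaks per library. The stated calling names paired-end mode together with a shift and an extension, and which applied was not tested. The deposited peak lists give the fold enrichment, a ratio of pileup to local background, and the −log10 p and −log10 q of each peak. Both unknowns, pileup and background, were solved from the deposited fold and −log10 p, and gave whole pileups for 100% of peaks (tolerance 0.01 in −log10 p). The lists hold peaks only, so reads outside peaks were not analysed here, and a missing peak is not an absence of reads.

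Starts came from GENCODE release M 21. Heights were compared with limma 3.58.1 in R 4.3.3 (mean-variance trend, threshold 0.05), tested on simulated data. Hox genes and the lists were chosen with earlier results of these data known. Coordinates and values in every library are given for gained, lost and shared Hox regions, and genes of the other lists are named with at least 2 gained or lost regions, except for some items that are not reported here. Alternatives changed the peak threshold, merging, starts, scaling and libraries.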

Additional observations from a re-analysis of the deposited data

How the results depend on the processing

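Peak calls at Hox genes depended on the threshold and on single libraries. With a −log10 q of at least 5, Hox regions numbered 29. Of these, 4 were lost (against 14.1% of all regions) and 18 were in a single library (against 35.3%). With a −log10 q of at least 10 Hox regions numbered 11, with 1 gained, 0 lost and 8 in a single library. The shares of all regions were then 8.59%, 12.5% and 32.6%. Both d2 libraries had a start peak at 1 Hox gene, against 40.8% of coding genes. With the 15000 strongest peaks of each library Hox regions numbered 12, with 1 gained, 0 lost and 8 in a single library. The shares of all regions were then 11.1%, 10.2% and 32.2%. Again both d2 libraries had a start peak at 1 Hox gene, against 41.2% of coding genes. The mean share of the cluster spans under peaks was 1.08% in d2 and 0.41% in d4. It was 0.812% and 0.362%, 0.298% and 0.18%, and 0.298% and 0.229% under these 3 settings, and 0.949% and 0.278% without the 5 kb ends, a setting chosen after the data were seen. d2 stayed above d4 in each. Merging, midpoint distances and the starts of all transcripts moved no count of Hox classes by over 1.5 times.

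Leaving out each library gave 2 to 6 gained, 8 to 21 lost and 1 to 2 shared Hox regions, and 1 to 4 genes with a start peak at d4. The highest gained, lost and start counts came from dropping a library of the time point that defines the count, which leaves 1 library to meet it. The shared count was 2 without d2 replicate 1 or either d4 library.

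Over all shared regions, 706 were higher and 319 lower at d4. These counts were 23 and 998 with scaling by background coverage, which moved the median difference from 0.06 to −0.45 (log2). They were 102 and 109 with quantile normalization, 63 and 60 with the deposited fold enrichment, 258 and 200 without the trend, and 464 higher with a mean pileup of at least 20. Leaving out d2 replicate 1 gave the most calls and leaving out either d4 library the fewest, 190 to 1123 higher and 92 to 377 lower, where a lone library was assumed to vary like the others. Hoxc13 passed the threshold under none of these (limma), with the sign reversed to 0.21 for the fold enrichment. With the replicate number as a block, the Hoxc13 difference was −0.10, and 814 regions were higher and 360 lower. Deviations of same-numbered libraries correlated at 0.0129, and the labels give no pairing.

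Within 250 bp of the summits the Hox regions with a match were 10 for GATAA (22.7%, against 39.1% of all regions), 6 for CDX (13.6%, against 12.5%), 2 for Hox and Pbx (4.55%, against 10.7%) and 2 for OTX (4.55%, against 13%). Pileups near 8 limit what 1 library can show, and a region called in 1 of 2 replicates cannot be read as a difference between time points.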
